A study of Mus musculus with 24 samples.

Results

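The comparison described here sets back skin wounds dressed with medium conditioned by M1 macrophages (CM1) against wounds dressed with medium conditioned by M0 macrophages (CM0). Its members are the 4 libraries labelled CM1 and the 4 labelled CM0, 8 of the 24 libraries of the series, and all genes were compared. Every animal was a male mouse homozygous for the db mutation of the leptin receptor on the C57BLKS/J background, a strain that becomes obese and diabetic. At 16 weeks of age each received full-thickness dorsal punch wounds 6 mm across under alginate bandages loaded with conditioned medium, which were replaced on day 3. The wounds were sampled on day 10, at a labelled age of 17.5 weeks. The other groups, which share the fit, are wounds given medium of M2a (CMA, n = 5) or M2c macrophages (CMC, n = 5) and wounds given a control bandage (Ctrl, n = 6). The labels do not name the stimuli that polarised the macrophages. The labels do not say how the wounds behind the libraries were distributed over mice, so the spread between libraries stands for the replicate error.

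Macrophages are called M0 when no polarising stimulus was given and M1 when they were driven to an inflammatory state, usually with bacterial lipopolysaccharide, interferon gamma or both. M1 cells secrete tumour necrosis factor, interleukin 1 and chemokines that draw neutrophils and monocytes out of the blood. In skin wounds such an inflammatory phase normally gives way to one of matrix deposition and closure, and in diabetic mice it is known to last longer. The macrophages themselves were not sequenced here, so every value below is a transcript level in the wound tissue that received their medium.

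No gene differed between CM1 and CM0 wounds after adjustment for the 18978 genes tested. By edgeR's quasi-likelihood test 0 genes (0%) had a Benjamini-Hochberg adjusted p under 0.05, and the smallest adjusted p was 0.999964. DESeq2 and limma also called 0 genes. At an unadjusted p under 0.05 edgeR returned 422 genes (2.22%), of which 238 (1.25%) were higher and 184 (0.97%) lower in CM1 wounds, where 5% would be 949 genes. DESeq2 returned 569 genes and limma 703 genes at that level. The level of 220 genes (1.16%) was higher in every CM1 library than in every CM0 library, and that of 152 genes (0.801%) was lower. These shares are the background against which the counts of gene groups below are read. The log2 fold change was above 0 in 50.9% of genes, and its median over all genes was 0.003. Each fold change in what follows is of CM1 over CM0, and each gene's adjusted p is at least that smallest value.

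**Figure D1:**
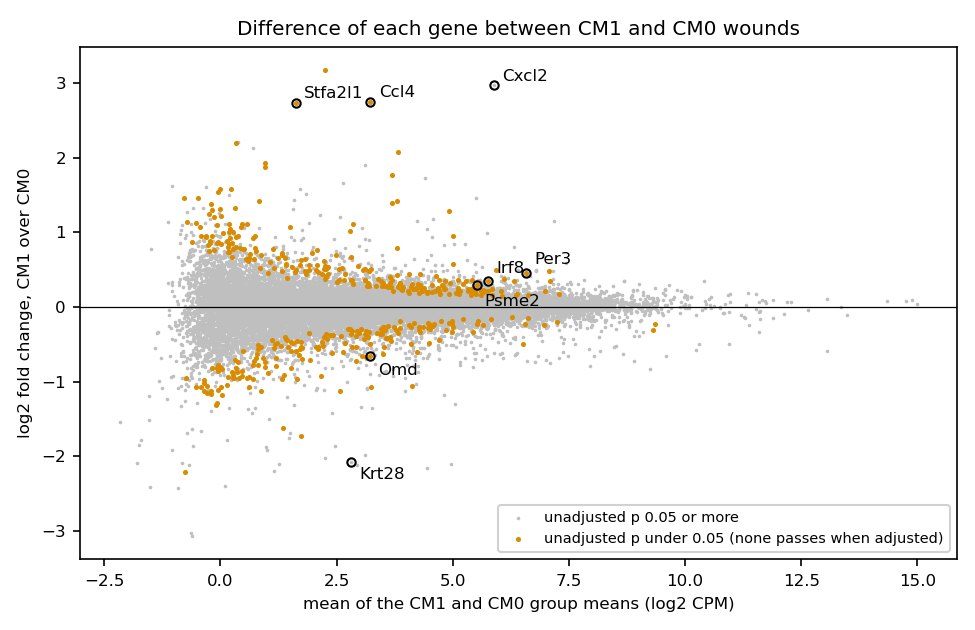
Log2 fold change of CM1 over CM0 (vertical axis) against the mean level in both groups (horizontal axis, log2 CPM) for the 18978 genes tested. Orange points are the 422 genes with an unadjusted p under 0.05, none of which passes after adjustment, and circles mark 8 genes described in the text.

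How large a difference could have been missed is given by the intervals of the fit. For the 17736 genes that averaged 1 CPM (counts scaled to a common library size) or more, 59.9% had a 95% interval that allowed at most a 1.5-fold difference either way, 85.9% at most a 2-fold and 98.8% at most a 4-fold difference. The median standard error (SE) of the log2 fold change was 0.175. Total counts were 8746185 to 11958892 in CM1 libraries and 9679936 to 10826300 in CM0 libraries. Total count, number of genes with a count, mitochondrial share and the share of the 10 highest genes did not differ between the groups by a two-sided exact permutation test over 70 divisions of the libraries (adjusted p = 0.886 for each, smallest unadjusted p possible 0.0286). Over the 8 libraries together Col3a1 held 2.96% of the counts and Col1a1, the other main fibrillar collagen, 2.72%.

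Libraries of the same medium were no closer to each other than to those of the other medium. Over the 500 most different genes of each pair, the root mean square log2 difference had a median of 1.862 within CM1 (6 pairs, range 1.672 to 1.986) and 1.908 within CM0 (6 pairs, range 1.755 to 2.373). Between CM1 and CM0 libraries it was 1.824 (16 pairs, range 1.512 to 2.447). One library stood apart from the others. The second CM0 library (CM0 2) had a median distance of 2.303 to the remaining 7, against 1.733 to 1.922 for every other library. It lay at -32.08 on the first principal component, which held 38.5% of the variance, while the CM1 libraries lay between -6.55 and 13.94 and the remaining CM0 libraries between -4.345 and 13.51. The low end of that component was led by the inner root sheath keratin genes Krt71, Krt25 and Krt27, and also held the pigment gene Tyrp1. The high end was led by Saa3, Il1b, Cxcl2 and S100a9, all tied to acute inflammation. The third CM1 library (CM1 3) was the highest of the 8 for several inflammatory lists, and values without CM1 3, without CM0 2 or without both are therefore given beside the results they touch.

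**Figure D2:**
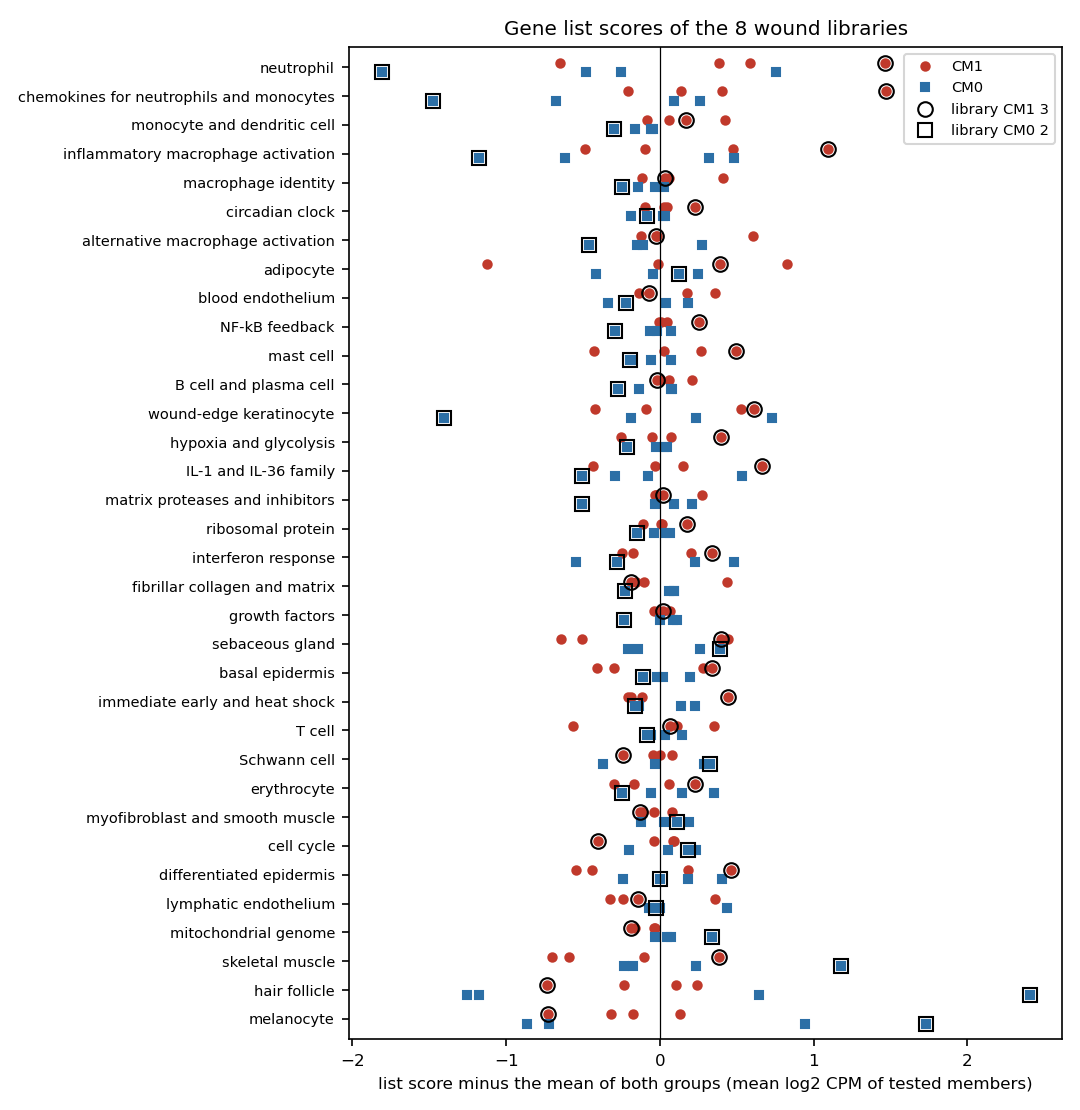
Score of each of 34 gene lists in the 4 CM1 libraries (red circles, upper row of each list) and the 4 CM0 libraries (blue squares, lower row) (the average log2 CPM of its tested members), after subtraction of the mean of both group means. Black outlines mark CM1 3 and CM0 2, which lie at opposite ends of the neutrophil, chemokine and inflammatory macrophage lists, while CM0 2 is highest for the hair follicle, melanocyte and skeletal muscle lists.

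Chemokines that attract neutrophils and monocytes were higher on average in CM1 wounds, by an amount that depended on the libraries CM1 3 and CM0 2. Of 14 chemokine genes, 13 had a log2 fold change above 0 with a median of 0.63, against a median of 0.003 over all genes. An unadjusted p under 0.05 was reached by 2 of the 14, both higher, against 1.25% of all genes higher at that level. None of the 14 had groups that did not overlap. Without CM1 3 the median was 0.41 with 12 of 14 above 0, and without CM0 2 it was 0.48 with 12 of 14. Without CM1 3 and CM0 2 together it was 0.17 with 9 of 14 above 0. In bulk tissue a lower or higher transcript level can come from a different number of cells of a type or from a different amount of RNA per cell, and these cannot be told apart.

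Cxcl2 encodes a ligand of the neutrophil receptor CXCR2 that resident cells and macrophages release early after injury. It had 7.98, 8.30, 372.6 and 28.9 CPM in the CM1 libraries, against 16.7, 1.51, 1.35 and 33.4 CPM in the CM0 libraries. The groups overlapped, with CM1 3 far above all others and 2 CM0 libraries lowest. The log2 fold change of Cxcl2 was 2.97 ± 1.495 (SE) with an unadjusted p of 0.060, and it was 0.19 without CM1 3 and -0.19 without both libraries. In Ctrl wounds Cxcl2 spanned 0.675 to 77.6 CPM with a median of 1.16 CPM.

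Cxcl3 and Cxcl1 encode further CXCR2 ligands from the same gene cluster. Cxcl3, chosen after its values were seen, had 3.65, 1.40, 43.6 and 5.94 CPM in CM1 wounds, against 4.85, 0.404, 0.104 and 9.05 CPM in CM0 wounds. Cxcl1 had 2.73, 1.07, 12.8 and 4.03 CPM in CM1 wounds, against 4.30, 0.505, 0.83 and 3.64 CPM in CM0 wounds. Both followed the order of libraries seen for Cxcl2, with CM1 3 highest, and CM0 2 and CM0 3 lowest. The promoters of Cxcl2 and Cxcl3 are shown because these genes moved together across libraries and are known targets of NF-kB, the transcription factor that carries the tumour necrosis factor and interleukin 1 signals. Each is the 250 bases before the RefSeq start on GRCm38.p6, Cxcl2 at chr5:90903649-90903898 and Cxcl3 at chr5:90785851-90786100, both on the plus strand, and the capitals mark matches to a kB motif, GGG then any 2 bases then TTTCC, on either strand.
Cxcl2: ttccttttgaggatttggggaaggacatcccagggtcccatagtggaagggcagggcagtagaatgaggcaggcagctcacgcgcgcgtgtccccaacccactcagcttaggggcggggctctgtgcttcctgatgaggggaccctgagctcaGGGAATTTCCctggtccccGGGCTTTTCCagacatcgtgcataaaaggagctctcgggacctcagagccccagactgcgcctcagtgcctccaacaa
Cxcl3: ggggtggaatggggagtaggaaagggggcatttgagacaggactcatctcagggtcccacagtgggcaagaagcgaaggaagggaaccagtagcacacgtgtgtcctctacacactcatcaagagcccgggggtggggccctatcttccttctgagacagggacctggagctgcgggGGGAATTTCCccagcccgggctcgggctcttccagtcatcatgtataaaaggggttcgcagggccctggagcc
The Cxcl2 matches begin 97 and 78 bases before the start and the Cxcl3 match 73 bases before it. In windows that reach from 250 bases before to 50 after the start, the motif was present in 4 of 9 available chemokine windows (Ccl9, Cxcl1, Cxcl2 and Cxcl3) and in 1.63% of all 32851 windows. The match describes the letters only.

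Ccl3 and Ccl4 encode chemokines that recruit monocytes and T cells. Ccl4 had 2.62, 2.47, 55.7 and 4.59 CPM in CM1 wounds, against 3.39, 1.11, 1.14 and 3.93 CPM in CM0 wounds. For Ccl4 the log2 fold change was 2.75 ± 0.82 (SE) with an unadjusted p of 0.0028, the smallest of the list, and 0.42 without CM1 3. Ccl3 had 4.67, 6.00, 71.6 and 9.52 CPM in CM1 wounds, against 5.49, 3.33, 3.53 and 9.24 CPM in CM0 wounds. For both genes the remaining 3 CM1 libraries lay among or close to the CM0 libraries, and the Ccl3 log2 fold change of 2.08 ± 0.76 (SE) was 0.32 without CM1 3. The pair are close paralogs, and some reads may be assigned to either. Ccl2, the main monocyte attractant acting on CCR2, had 13.6, 29.8, 12.7 and 18.5 CPM in CM1 wounds, against 18.6, 7.17, 18.99 and 11.9 CPM in CM0 wounds. Its groups overlapped throughout, CM1 3 was the lowest CM1 library, and the log2 fold change was 0.40 ± 0.50 (SE).

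**Figure D3:**
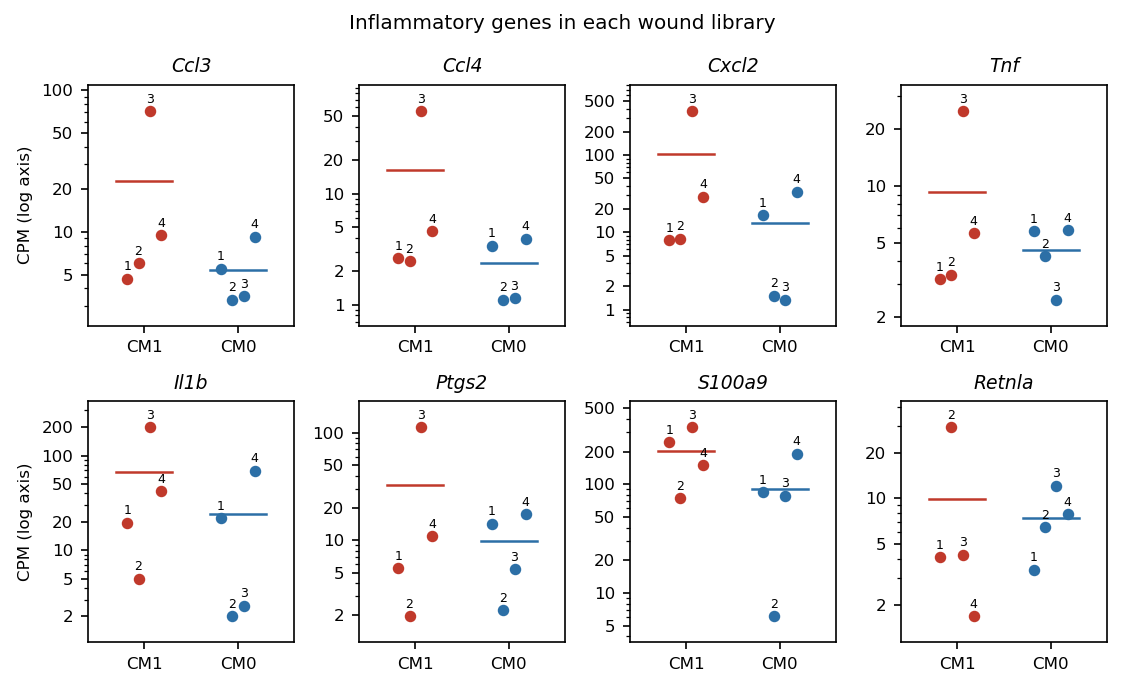
CPM (log axis) of 8 inflammatory genes in each CM1 library (red, left) and CM0 library (blue, right), numbered by replicate, with a line at each group mean. CM1 3 is the highest of the 8 libraries for each gene except Retnla, where it is CM1 2.

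The median of the cytokines and enzymes of inflammatory macrophages also depended on CM1 3 and CM0 2. Of 16 tested genes of that list 11 were above 0, with a median of 0.32 that became -0.01 without CM1 3 and -0.21 without both libraries. Tnf, which encodes tumour necrosis factor, had 3.19, 3.37, 25.1 and 5.60 CPM in CM1 wounds, against 5.77, 4.24, 2.49 and 5.80 CPM in CM0 wounds. Apart from CM1 3 the CM1 libraries lay within the CM0 range. Tnf gave a log2 fold change of 1.02 ± 0.49 (SE) with an unadjusted p of 0.048, and -0.17 without CM1 3. Il1b, the gene of interleukin 1 beta, had 19.6, 5.02, 198.7 and 42.4 CPM in CM1 wounds, against 21.8, 2.02, 2.59 and 69.3 CPM in CM0 wounds. The CM0 libraries alone spanned the range from the lowest value to the second highest. The Il1b log2 fold change was 1.47 ± 1.21 (SE), and -0.10 when CM1 3 was left out. Reads of Il1b cannot be told from those of the antisense gene Il1bos, because the libraries do not mark the strand.

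Nos2, the inducible nitric oxide synthase used as a marker of M1 cells in mice, had 10.9, 4.19, 22.8 and 19.2 CPM in CM1 wounds, against 30.8, 1.51, 7.57 and 5.60 CPM in CM0 wounds. The highest of the 8 values was a CM0 library. The log2 fold change was 0.30 ± 1.55 (SE), with a 95% interval from -2.92 to 3.53, and Ctrl wounds spanned 1.64 to 160.6 CPM. Il6, another cytokine gene of the inflammatory state, stayed near 1 CPM, with 1.14, 0.74, 0.519 and 1.12 CPM in CM1 wounds, against 2.01, 0.202, 0.415 and 1.08 CPM in CM0 wounds. Ptgs2, chosen after its values were seen, encodes the prostaglandin-forming enzyme COX-2 and had 5.47, 1.97, 112.3 and 10.98 CPM in CM1 wounds, against 14.3, 2.22, 5.40 and 17.4 CPM in CM0 wounds. Cd86, a costimulatory receptor of activated macrophages and dendritic cells, was the gene of this list whose groups did not overlap. It had 13.8, 13.4, 18.1 and 14.8 CPM in CM1 wounds, against 11.4, 11.3, 12.9 and 11.5 CPM in CM0 wounds, a log2 fold change of 0.35 ± 0.18 (SE) with an unadjusted p of 0.065.

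Downstream of these cytokines, genes that NF-kB itself switches on as feedback were slightly above 0 in CM1 wounds. Of 14 such genes 13 were above 0, with a median of 0.14, and the median was 0.03 with 9 of 14 above 0 without CM1 3 and CM0 2. Traf1, an adaptor of tumour necrosis factor receptors, had the smallest p of that list. It had 10.1, 8.96, 13.9 and 9.75 CPM in CM1 wounds, against 6.77, 6.36, 7.06 and 10.3 CPM in CM0 wounds, and 1 CM0 library overlapped the CM1 range. The log2 fold change of Traf1 was 0.48 ± 0.22 (SE) with an unadjusted p of 0.04. In the interleukin 1 and interleukin 36 family 9 of 14 genes were above 0, with a median of 0.07 that became -0.24 without both libraries. Il1rn, the receptor antagonist that blocks interleukin 1, had 41.4, 69.0, 76.2 and 47.1 CPM in CM1 wounds, against 41.7, 29.1, 36.8 and 53.7 CPM in CM0 wounds, with a log2 fold change of 0.54 ± 0.26 (SE).

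Genes induced by interferons, the antiviral and macrophage-activating cytokines, had a median near 0 that leaving out single libraries moved in both directions. Of 29 genes 19 were above 0 with a median of 0.04, none had an unadjusted p under 0.05, and the median was -0.14 without CM1 3 and CM0 2. It was 0.23 with 27 of 29 above 0 without CM0 3, and -0.11 without CM0 4. Isg15, a ubiquitin-like protein induced by type I interferon, had 1.71, 4.28, 3.63 and 1.12 CPM in CM1 wounds, against 4.03, 1.92, 4.67 and 1.87 CPM in CM0 wounds. The libraries of both media were spread over much the same range, and the Isg15 log2 fold change was -0.19 ± 0.47 (SE).

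Psme2, a subunit of the proteasome activator PA28 that interferon gamma induces, had the second smallest p among all genes higher in CM1 wounds with a mean of at least 1 CPM. It had 49.0, 49.0, 57.8 and 45.5 CPM in CM1 wounds, against 40.4, 43.3, 40.8 and 39.3 CPM in CM0 wounds, and the groups did not overlap. Its log2 fold change was 0.30 ± 0.08 (SE) with an unadjusted p of 0.00075. Psme2 had its lowest mean in CM0 wounds, 40.9 CPM. It averaged 50.3 CPM in CM1, 49.4 CPM in CMA, 46.0 CPM in CMC and 45.2 CPM in Ctrl wounds. Its partners were chosen after their values were seen. The other PA28 subunit gene Psme1 stood at a log2 fold change of 0.07 ± 0.10 (SE), and the immunoproteasome genes Psmb8, Psmb9 and Psmb10 had 0.13, 0.20 and 0.10. The groups overlapped for all 4 of these genes. Psme2b is a close copy of Psme2, and reads shared by the pair cannot be placed with certainty.

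Neutrophil genes followed the chemokines. Of 17 tested genes 16 were above 0, with a median of 0.68, and 1 had an unadjusted p under 0.05. Some members are shared with other lists, S100a8 and S100a9 with the wound-edge list and Hdc with the mast cell list. Asprv1 held the most counts, 44023 over the 8 libraries against 11279 for S100a9. Which cells made these transcripts was not tested. The list score, an average of log2 CPM over the tested members, was 3.86, 2.82, 4.93 and 4.06 in CM1 libraries, against 3.22, 1.67, 2.99 and 4.23 in CM0 libraries. CM1 3 was highest and CM0 2 lowest, 9.64-fold apart, and the median was 0.24 without CM1 3, and 0.01 with 9 of 17 above 0 without both. S100a8 and S100a9 encode the subunits of calprotectin, the most abundant cytosolic protein of neutrophils, which stressed keratinocytes also make. S100a9 had 243.6, 74.7, 333.3 and 149.1 CPM in CM1 wounds, against 85.0, 6.16, 78.4 and 191.0 CPM in CM0 wounds. The level in CM0 2 was the lowest by far. The S100a9 log2 fold change was 1.15 ± 0.91 (SE), and S100a8 had 0.70 ± 0.81 (SE). Without CM0 2 these were 0.76 for S100a9 and 0.31 for S100a8, and without both libraries 0.40 for S100a9 and 0.041 for S100a8. Stfa2l1, a stefin of the neutrophil lineage with close paralogs, had 0.798, 0.0822, 18.5 and 2.02 CPM in CM1 wounds, against 0.549, 0, 0.311 and 2.26 CPM in CM0 wounds. Its log2 fold change of 2.74 ± 1.23 (SE), the smallest p of the list at 0.037 unadjusted, was 0.24 without CM1 3.

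Cd177, a surface protein of neutrophils, lay outside the list and below the level set for named genes and was chosen after its values were seen. It had 1.595, 2.38, 2.59 and 1.68 CPM in CM1 wounds, against 0.275, 0.202, 0.208 and 1.08 CPM in CM0 wounds. The groups did not overlap, although each value rests on few reads, and CM1 3 did not stand apart from the other CM1 libraries. Its log2 fold change was 2.20 ± 0.63 (SE) with an unadjusted p of 0.002.

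Genes of monocytes and dendritic cells were slightly higher on average in CM1 wounds, and none passed the adjusted threshold. Of 16 tested monocyte and dendritic cell genes 15 were above 0, with a median of 0.33 both with all libraries and without those 2. An unadjusted p under 0.05 was reached by 2 of them, both higher, and the groups of 1 did not overlap. Over all genes 1.25% were higher at that level, and 1.16% were higher without overlap. The median was between 0.22, without CM1 2, and 0.39, without CM1 4, when libraries were left out 1 at a time. The list score was 4.18, 4.54, 4.29 and 4.03 in CM1 libraries, against 4.07, 3.82, 4.06 and 3.96 in CM0 libraries, so that 1 CM1 library overlapped the CM0 range.

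Irf8, a transcription factor that monocytes and dendritic cells need for their development, had the smallest p of that list. It had 57.3, 71.2, 60.6 and 54.6 CPM in CM1 wounds, against 45.8, 44.7, 54.0 and 47.1 CPM in CM0 wounds. Every CM1 library was above every CM0 library, with a narrow gap. Irf8 gave a log2 fold change of 0.35 ± 0.14 (SE) with an unadjusted p of 0.017. In Ctrl wounds it spanned 42.8 to 68.3 CPM with a median of 59.0 CPM, and the CM0 libraries lay below that median.

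Class II histocompatibility genes, whose products present antigen to helper T cells, were chosen from the list after their values were seen. H2-Eb1 had 160.5, 162.7, 162.2 and 122.8 CPM in CM1 wounds, against 123.6, 131.8, 115.3 and 108.4 CPM in CM0 wounds. H2-Ab1 had 162.5, 173.5, 167.8 and 131.4 CPM in CM1 wounds, against 129.8, 140.7, 129.7 and 112.3 CPM in CM0 wounds. In both genes 3 CM1 libraries were above all CM0 libraries and CM1 4 was within their range. The log2 fold changes were 0.34 ± 0.14 (SE) for H2-Eb1, 0.31 ± 0.15 (SE) for H2-Ab1, 0.27 ± 0.15 (SE) for H2-Aa and 0.19 ± 0.17 (SE) for the invariant chain Cd74. The unadjusted p was 0.024 for H2-Eb1 and above 0.05 for the others. Ccr2, the receptor through which monocytes follow CCL2 out of the blood, had 47.1, 69.1, 39.0 and 58.3 CPM in CM1 wounds, against 42.7, 18.2, 53.0 and 29.0 CPM in CM0 wounds. Cd207, the langerin gene of Langerhans cells of the epidermis, was the exception of the list, with 4.90, 5.18, 7.37 and 1.35 CPM in CM1 wounds, against 6.498, 7.27, 6.33 and 4.42 CPM in CM0 wounds.

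Macrophage identity genes were above 0 in 18 of 20 cases, with a median of 0.22, and 0.19 without CM1 3 and CM0 2. Without CM1 2 the median was 0.094 with 13 of 20 above 0. Aif1, which encodes the calcium-binding protein IBA1 of macrophages, had 10.7, 9.87, 10.7 and 11.7 CPM in CM1 wounds, against 7.14, 7.37, 7.37 and 8.85 CPM in CM0 wounds. The groups did not overlap. Aif1 gave a log2 fold change of 0.48 ± 0.18 (SE) with an unadjusted p of 0.012, which lay between 0.44 and 0.56 when each library was left out in turn. Adgre1, the F4/80 antigen, had 175.1, 204.1, 164.1 and 189.4 CPM in CM1 wounds, against 166.6, 178.7, 153.1 and 113.2 CPM in CM0 wounds. For Adgre1 the groups overlapped, with a log2 fold change of 0.26 ± 0.23 (SE). Spp1 and Cx3cr1 were the 2 members below 0, at -0.13 and -0.16.

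**Figure D4:**
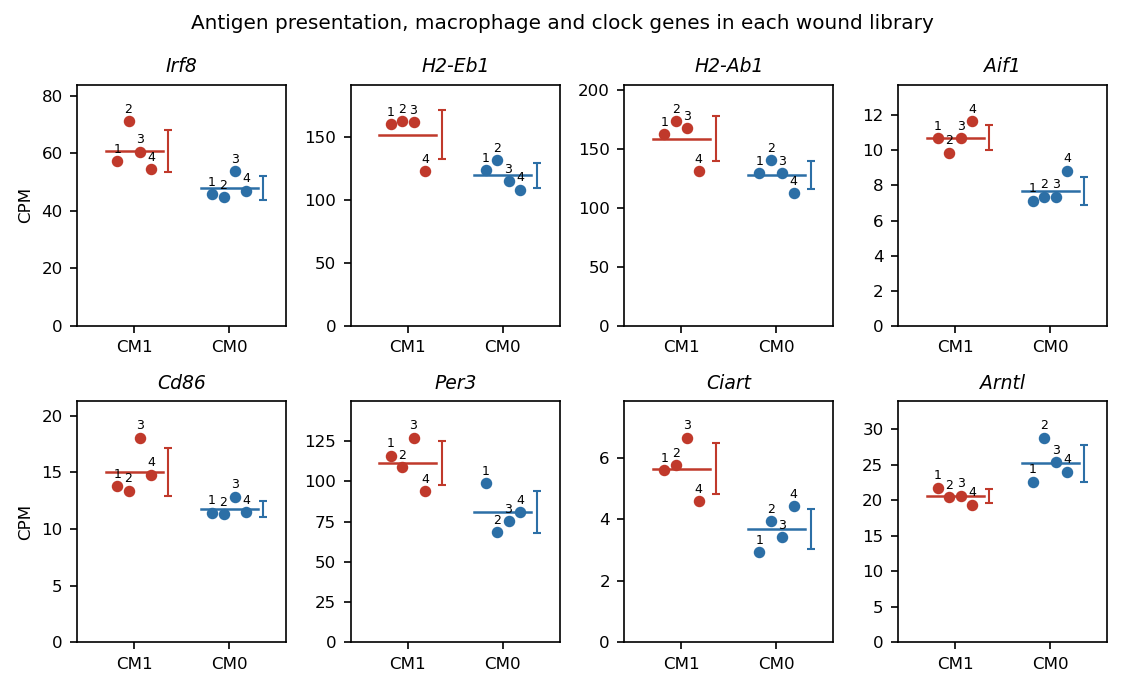
CPM (linear axes from 0) of 5 antigen presentation and macrophage genes and 3 clock genes in each CM1 library (red, left) and CM0 library (blue, right), numbered by replicate. Lines are group means and error bars are SDs over 4 libraries; the groups do not overlap for Irf8, Aif1, Cd86, Ciart and Arntl.

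Genes of the alternative, repair-associated macrophage state were not lower in CM1 wounds. Of 13 tested genes 10 were above 0, with a median of 0.19 that was 0.00 without CM1 2. Il10, the gene of an anti-inflammatory cytokine, had the smallest p of the list and groups that did not overlap. It had 1.48, 1.48, 1.87 and 1.68 CPM in CM1 wounds, against 0.641, 1.01, 1.14 and 0.492 CPM in CM0 wounds, a log2 fold change of 0.98 ± 0.49 (SE) with an unadjusted p of 0.057. Arg1, the arginase that competes with nitric oxide synthase for arginine, had 265.3, 107.9, 304.7 and 152.7 CPM in CM1 wounds, against 161.4, 64.2, 111.5 and 213.9 CPM in CM0 wounds. Mrc1, the mannose receptor CD206, had 338.4, 509.2, 346.1 and 383.4 CPM in CM1 wounds, against 370.9, 257.9, 501.8 and 255.5 CPM in CM0 wounds. Neither separated the groups, with log2 fold changes of 0.59 ± 0.88 (SE) for Arg1 and 0.19 ± 0.22 (SE) for Mrc1. Chil3, a chitinase-like protein of alternatively activated macrophages in mice, had 9.91, 16.0, 13.4 and 8.18 CPM in CM1 wounds, against 6.41, 2.73, 7.16 and 9.34 CPM in CM0 wounds, with a log2 fold change of 0.89 ± 0.56 (SE). Retnla, which encodes the resistin-like protein FIZZ1, had 4.10, 29.4, 4.25 and 1.68 CPM in CM1 wounds, against 3.39, 6.46, 12.1 and 7.87 CPM in CM0 wounds. The Retnla log2 fold change of 0.44 ± 0.80 (SE) rested on CM1 2 and was -1.15 without it.

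No marker of lymphocytes or mast cells passed the adjusted threshold. T cell genes had 6 of 13 above 0 with a median of -0.02, and the smallest p was that of Cd4, at a log2 fold change of 0.38 ± 0.32 (SE). Of 10 B and plasma cell entries only 3 genes passed the filter on low counts, which leaves that cell type largely unmeasured. Mast cell genes had 9 of 10 above 0 with a median of 0.13, the smallest p being that of Fcer1a, a chain of the IgE receptor, at 0.68 ± 0.37 (SE). The mast cell median was 0.0086 with 5 of 10 above 0 without CM1 2, and 0.32 without CM1 4.

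Clock genes held the smallest p of any list but that of the chemokines, in genes whose levels CM1 3 did not dominate. Of 15 circadian genes 9 were above 0, with a median of 0.20, and 0.11 without CM1 3 and CM0 2. An unadjusted p under 0.05 was reached by 2 higher genes and 1 lower gene, against 1.25% and 0.97% of all genes. The groups did not overlap for 3 higher genes and 1 lower gene, against 1.16% and 0.801% of all genes. Clock genes move together, no test of the list was run, and these counts are not read as a result. The time of day at which tissue was collected is not given in the labels used here, and its part in these values was not tested.

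Per3 encodes a period protein, part of the repressor arm of the clock. It had 116.0, 108.9, 127.1 and 93.8 CPM in CM1 wounds, against 99.1, 68.5, 75.1 and 80.9 CPM in CM0 wounds. CM0 1 lay above CM1 4 and otherwise the groups were apart. For Per3 the fit gave a log2 fold change of 0.46 ± 0.15 (SE) with an unadjusted p of 0.0053, and in Ctrl wounds it spanned 76.7 to 124.4 CPM. Per3 had its lowest mean in CM0 wounds, 80.9 CPM. It averaged 111.4 CPM in CM1, 103.8 CPM in CMA, 123.3 CPM in CMC and 95.85 CPM in Ctrl wounds. Ciart encodes a repressor of the activator pair CLOCK and BMAL1. It had 5.58, 5.76, 6.64 and 4.59 CPM in CM1 wounds, against 2.93, 3.94, 3.42 and 4.42 CPM in CM0 wounds, with no overlap. Ciart also had its lowest mean in CM0 wounds, 3.68 CPM. It averaged 5.64 CPM in CM1, 5.77 CPM in CMA, 6.69 CPM in CMC and 4.84 CPM in Ctrl wounds. For Ciart the log2 fold change was 0.62 ± 0.21 (SE) with an unadjusted p of 0.0077, and reads of the opposite-strand gene C920021L13Rik cannot be separated from it.

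Arntl, which encodes the activator BMAL1 and peaks in antiphase to the period genes, was chosen from the list after its values were seen. It had 21.8, 20.5, 20.7 and 19.4 CPM in CM1 wounds, against 22.6, 28.8, 25.3 and 23.99 CPM in CM0 wounds, with no overlap. For Arntl the log2 fold change was -0.29 ± 0.13 (SE) with an unadjusted p of 0.03. The other clock genes whose groups did not overlap, also picked out afterwards, were Nr1d2, a REV-ERB repressor, at 0.20 ± 0.10 (SE), and Bhlhe41, another repressor, at 0.23 ± 0.17 (SE). Per1 and Nr1d1 had log2 fold changes of -0.14 and -0.17, opposite in sign to Per3 and Nr1d2.

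The promoters of Ciart and Per3 are shown for the clock motifs they hold, and whether the clock acts through these in the wounds was not tested. Each is the 250 bases before the RefSeq start on GRCm38.p6, printed in the direction of the gene on the minus strand, Ciart at chr3:95882229-95882478 and Per3 at chr4:151044666-151044915. Capitals mark E-boxes (CACGTG, bound by CLOCK and BMAL1) in Ciart and D-boxes (TTANGTAA, bound by DBP, TEF and HLF) in Per3, searched on both strands.
Ciart: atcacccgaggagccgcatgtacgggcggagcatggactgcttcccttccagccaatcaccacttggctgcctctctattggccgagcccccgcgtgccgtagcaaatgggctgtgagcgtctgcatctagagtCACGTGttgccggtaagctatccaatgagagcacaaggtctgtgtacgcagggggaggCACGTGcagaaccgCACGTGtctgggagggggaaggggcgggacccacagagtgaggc
Per3: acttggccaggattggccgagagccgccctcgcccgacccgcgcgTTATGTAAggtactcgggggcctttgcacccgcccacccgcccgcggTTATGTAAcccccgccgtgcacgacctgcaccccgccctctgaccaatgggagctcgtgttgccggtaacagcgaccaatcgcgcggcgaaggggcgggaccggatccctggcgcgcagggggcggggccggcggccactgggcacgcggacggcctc
The E-boxes of Ciart begin 116, 58 and 44 bases before the start, and the D-boxes of Per3 begin 205 and 158 bases before it. The E-box was found in 6 of 19 windows of clock genes, which belong to 5 genes (Bhlhe41, Ciart, Cry1, Per1 and Tef), and in 7.15% of all 32851 windows. The D-box was found in 1 of the 19, that of Per3, and in 2.32% of all windows. The motifs do not overlap each other in these 2 promoters, and a match is no evidence of binding.

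No epidermal gene passed the adjusted threshold. Basal keratinocyte genes had 6 of 15 above 0 with a median of -0.01, against -0.20 with 0 of 15 above 0 without CM1 3 and CM0 2, and the smallest p was that of Cdh3, the P-cadherin gene, at a log2 fold change of -0.19 ± 0.25 (SE). Differentiated keratinocyte genes had 5 of 25 above 0 with a median of -0.15, and 0.00 without CM1 4. Without CM1 3 the median was -0.33, and without CM1 3 and CM0 2 it was -0.38 with 2 of 25 above 0. Krt10, a keratin of cells that have left the basal layer, had 1770, 1174, 2378 and 1249 CPM in CM1 wounds, against 1557, 2339, 2342 and 3010 CPM in CM0 wounds. The CM0 libraries were higher on average but the ranges overlapped, and the Krt10 log2 fold change was -0.49 ± 0.30 (SE). Keratins of the migrating wound edge did not separate the groups either. Krt6a had 1121, 423.5, 1019 and 815.6 CPM in CM1 wounds, against 666.4, 118.0, 952.4 and 1415 CPM in CM0 wounds. Krt16 had 1178, 630.4, 1596 and 1047 CPM in CM1 wounds, against 641.2, 208.8, 1352 and 1816 CPM in CM0 wounds. The lowest and the highest library of both genes were CM0 wounds, and the log2 fold changes were 0.10 ± 0.69 (SE) and 0.15 ± 0.64 (SE). The wound-edge list had 12 of 20 above 0 with a median of 0.10, and -0.29 without CM1 3 and CM0 2. Its median was -0.12 without CM0 2, and 0.52 with 16 of 20 above 0 without CM0 4.

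Genes of hair follicles, pigment cells and muscle gave the lowest medians, and these were set largely by CM0 2. Of 16 tested hair follicle genes 14 were below 0 with a median of -1.24, which was 0.14 without CM0 2 and 0.23 without both libraries. The hair follicle score was 1.80, 1.66, 0.824 and 1.33 in CM1 libraries, against 2.20, 3.96, 0.305 and 0.379 in CM0 libraries, so that CM0 wounds held both extremes. Krt28, an inner root sheath keratin, had 3.19, 2.88, 1.14 and 3.47 CPM in CM1 wounds, against 9.79, 33.2, 1.25 and 0.885 CPM in CM0 wounds. Melanocyte genes had 8 of 9 below 0 with a median of -1.35, and -0.32 without CM0 2. Tyrp1, an enzyme of melanin synthesis, had 1.595, 2.06, 0.83 and 3.03 CPM in CM1 wounds, against 10.8, 17.6, 1.45 and 0.787 CPM in CM0 wounds. For both genes 2 CM0 libraries were high and 2 low. Hair and pigment genes are used in growing follicles, and the part of the follicles taken in these values was not tested.

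Skeletal muscle genes were lower in CM1 wounds in 22 of 23 cases, with a median log2 fold change of -0.60, -0.19 without CM0 2 and -0.44 without both libraries. None reached an unadjusted p under 0.05. The score was 6.90, 7.497, 7.99 and 7.01 in CM1 libraries, against 7.43, 8.78, 7.36 and 7.84 in CM0 libraries. Atp2a1, the calcium pump of fast muscle fibres, had 248.5, 349.8, 526.4 and 309.4 CPM in CM1 wounds, against 465.5, 1054, 354.2 and 492.8 CPM in CM0 wounds. The groups overlapped and the log2 fold change was -0.72 ± 0.48 (SE). Mouse skin carries a thin muscle layer, the panniculus carnosus, and the part of the amount of muscle taken in these values was not tested.

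The fibrillar matrix that fills the wound bed was close to equal. Of 30 collagen and matrix genes 20 were above 0 with a median of 0.03, their log2 fold changes lay between -0.16 and 0.17, and without CM1 4 the median was -0.16. Col1a1 had 27790, 25100, 20610 and 40270 CPM in CM1 wounds, against 25480, 22710, 27270 and 32270 CPM in CM0 wounds. Col3a1, the collagen of early granulation tissue, had 28070, 25650, 24590 and 45660 CPM in CM1 wounds, against 33290, 23130, 29790 and 30380 CPM in CM0 wounds. CM1 4 was the highest library for both. The 95% interval of the log2 fold change ran from -0.28 to 0.44 for Col1a1 and from -0.30 to 0.48 for Col3a1. Acta2, the smooth muscle actin of contractile myofibroblasts, had 195.5, 179.3, 130.7 and 227.0 CPM in CM1 wounds, against 230.8, 171.2, 133.8 and 267.6 CPM in CM0 wounds, with a log2 fold change of -0.13 ± 0.28 (SE).

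Mmp3, stromelysin 1, was the gene of the protease list whose groups did not overlap. It had 143.7, 148.8, 156.6 and 181.0 CPM in CM1 wounds, against 133.0, 77.4, 118.8 and 121.8 CPM in CM0 wounds. That gave a log2 fold change of 0.48 ± 0.21 (SE) with an unadjusted p of 0.034, the 1 gene of 22 under 0.05, in a list with 13 of 22 above 0 and a median of 0.05. Growth factor genes were evenly divided, with 13 of 25 above 0 and a median of 0.02. Vegfa, the main angiogenic factor, had 89.4, 48.7, 104.7 and 86.6 CPM in CM1 wounds, against 72.6, 48.7, 66.9 and 62.5 CPM in CM0 wounds, with a log2 fold change of 0.39 ± 0.42 (SE). Blood endothelial genes had 19 of 21 above 0 with a median of 0.14, and 0.19 without CM1 3 and CM0 2, but none reached an unadjusted p under 0.05. Without CM1 4 the median of the endothelial list was 0.037 with 14 of 21 above 0. Pecam1, the CD31 adhesion molecule used to mark vessels, had 138.6, 110.2, 99.4 and 154.2 CPM in CM1 wounds, against 119.1, 96.6, 90.4 and 129.1 CPM in CM0 wounds, with a log2 fold change of 0.21 ± 0.19 (SE). Adipocyte genes had 18 of 19 above 0 with a median of 0.18, which was -0.08 without CM1 2 and 0.42 without CM1 4.

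Genes of dividing cells were below 0 in 24 of 27 cases, with a median of -0.12 that was -0.01 without CM1 3 and 0.02 without CM1 3 and CM0 2. Nusap1, a protein of the mitotic spindle, had the smallest p of that list. It had 12.1, 11.9, 9.13 and 10.3 CPM in CM1 wounds, against 15.7, 14.8, 15.9 and 11.1 CPM in CM0 wounds, with a log2 fold change of -0.40 ± 0.16 (SE) and an unadjusted p of 0.021. Reads of its opposite-strand neighbour Oip5 cannot be separated from it. Ribosomal protein genes, many of which share reads with pseudogenes, had 25 of 28 above 0 with a median of 0.04, and 0.00 without CM1 3.

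Transcripts of the mitochondrial genome were the 1 list of the 34 whose score did not overlap between the groups. For any 1 list, 2 of the 70 divisions of the libraries separate completely, and 34 lists were looked at. This count is therefore not read as a result. All 11 tested genes were lower in CM1 wounds with a median of -0.23, and 2 reached an unadjusted p under 0.05. Of all genes 0.97% were lower at that level. The median was -0.15 without CM1 3, -0.15 without CM0 2, and -0.11 with 10 of 11 lower without both. The score was 6.103, 6.225, 6.079 and 6.234 in CM1 libraries, against 6.340, 6.604, 6.235 and 6.310 in CM0 libraries, and the gap between the groups was narrow. The mitochondrial share of all counts did overlap. It was 0.8625%, 0.8281%, 0.7925% and 0.861% in CM1 libraries, against 0.8137%, 1.082%, 0.7998% and 0.9714% in CM0 libraries. The transcripts come from a single molecule and are not independent of each other. mt-Cytb, a subunit of respiratory complex III, had 570.8, 574.5, 543.1 and 590.3 CPM in CM1 wounds, against 664.4, 879.1, 568.2 and 696.8 CPM in CM0 wounds. Its log2 fold change was -0.30 ± 0.13 (SE) with an unadjusted p of 0.03, and -0.17 without CM0 2, the library that was also highest for muscle genes. Muscle genes and mitochondrial transcripts were both highest in CM0 2, and the part of muscle in the mitochondrial values was not tested.

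Outside the lists, the 10 genes with the smallest p in each direction, among those with a mean of at least 1 CPM over all libraries and groups that did not overlap, were mostly in no list. Among the higher genes, Nhej1, a factor of DNA end joining, had the smallest p of all, 0.00052 unadjusted. It had 3.53, 2.47, 2.59 and 2.47 CPM in CM1 wounds, against 1.46, 1.92, 1.35 and 1.67 CPM in CM0 wounds, a log2 fold change of 0.78 ± 0.19 (SE), and in Ctrl wounds it spanned 1.69 to 2.50 CPM. Asb6, a substrate adaptor of ubiquitin ligases, had 31.1, 27.6, 29.1 and 33.1 CPM in CM1 wounds, against 25.1, 25.0, 24.2 and 23.9 CPM in CM0 wounds, with a log2 fold change of 0.30 ± 0.09 (SE). For Nhej1 the library CM1 1 stood above the other CM1 libraries, and the Nhej1 log2 fold change was 0.64 without CM1 1. The remaining higher genes, besides Psme2 and Ciart above, were Pcdhb4 at 0.95, Tspyl1 at 0.21, Ccdc32 at 0.32, Cdiptos at 1.01, Itfg1 at 0.22 and Sag at 0.66, with unadjusted p between 0.0048 and 0.012. Pcdhb4 belongs to a cluster of near-identical protocadherins, and Cdiptos lies opposite Cdipt, so their counts are uncertain.

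Among the lower genes, Omd, which encodes osteomodulin, a small leucine-rich proteoglycan, had the smallest p, 0.0023 unadjusted. It had 7.29, 7.15, 7.78 and 6.39 CPM in CM1 wounds, against 8.60, 13.6, 11.8 and 11.2 CPM in CM0 wounds, and a log2 fold change of -0.66 ± 0.19 (SE). Omd lies within Cenpp on the opposite strand, and their reads cannot be told apart. Dusp8, a phosphatase that inactivates JNK and p38 kinases, had 8.09, 9.62, 10.7 and 6.84 CPM in CM1 wounds, against 15.3, 11.6, 11.8 and 16.0 CPM in CM0 wounds, with a log2 fold change of -0.63 ± 0.24 (SE). Ctrl wounds spanned 6.67 to 12.97 CPM for Omd and 8.93 to 17.3 CPM for Dusp8, so that both media lay inside or close to the Ctrl range. The others were Shld2 at -0.36, Zfp523 at -0.27, Impg2 at -0.78, Bccip at -0.22, Tamm41 at -0.34, Capn9 at -0.91, Ogfod1 at -0.25 and Aff2 at -0.54. Their unadjusted p lay between 0.005 and 0.018, and Bccip overlaps Uros and Dhx32 on the opposite strand. The absence of overlap was part of the rule that chose these 20 genes and is not a finding about them.

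**Figure D5:**
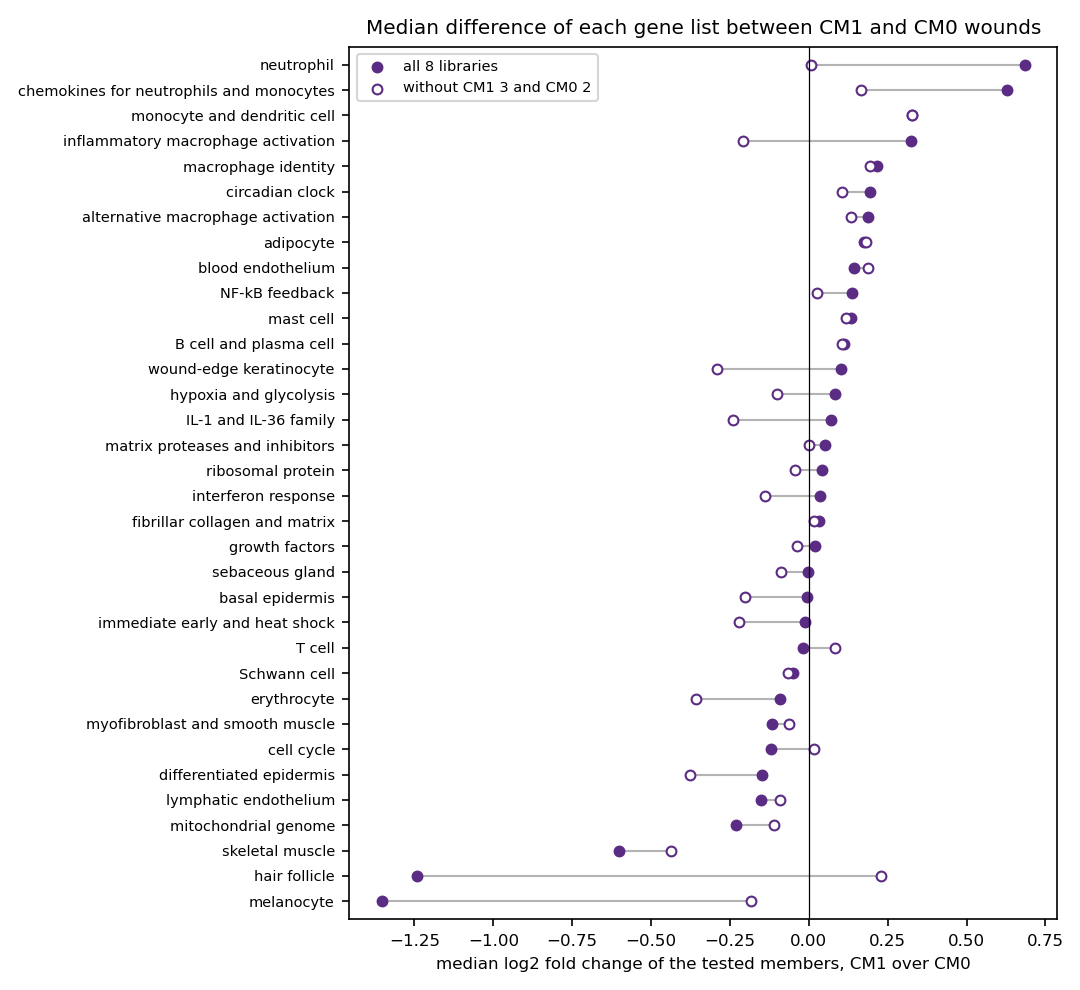
Median log2 fold change of CM1 over CM0 of the tested members of each of 34 gene lists, with all 8 libraries (filled) and without CM1 3 and CM0 2 (open). The medians of the monocyte and dendritic cell, macrophage identity, adipocyte and blood endothelium lists change little between these 2 settings. They do depend on other libraries, with adipocyte at -0.08 and macrophage identity at 0.094 without CM1 2, and blood endothelium at 0.037 without CM1 4. Those of the neutrophil, chemokine, inflammatory macrophage, hair follicle and melanocyte lists move towards or across 0 between the settings shown.

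The other conditioned media, set against the same CM0 libraries, also gave 0 genes with an adjusted p under 0.05. At an unadjusted p under 0.05 there were 596 genes (3.14%) for CMA and 706 genes (3.72%) for CMC, against 422 (2.22%) for CM1. The 3 comparisons share the CM0 libraries and are not independent, and whether these counts differ was not tested.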

How the data were processed

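Total RNA of wound tissue was depleted of ribosomal RNA with Ribo-Zero and made into NEBNext Ultra libraries, which do not mark the strand, per the labels' protocols. The submitters' processing notes name bcl2fastq 2.17, FastQC, cutadapt, STAR, featureCounts, DESeq2 and the genome GRCm38. The release of the gene annotation was not given in the sources used here. The authors deposited raw counts, 1 table of 54232 genes per library. Symbols and coordinates were taken from GENCODE M21 on GRCm38 for 54165 of them, and promoters from RefSeq (GRCm38.p6).

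Genes with few counts were removed with filterByExpr of edgeR 4.0.16, which left 18978. Library sizes were scaled by TMM, and 1 robust quasi-likelihood model with a term per group was fitted to all 24 libraries, so that the spread is shared by the 5 groups. Benjamini-Hochberg adjusted p under 0.05 counts as called. CPM are TMM-scaled, list scores use log2 CPM with a prior count of 2, and ± is an SE of the fit where so marked. Exact permutation tests are two-sided. R 4.3.3, limma 3.58.1 (voom with sample quality weights) and DESeq2 1.42.0 were also used.

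The 34 lists hold 614 entries; 609 were found by symbol and 3 by synonym, 2 were not found, and 573 entries (554 distinct genes) passed the filter. The comparison and lists were chosen with earlier results of these data known. Named genes are all called genes, the 10 smallest p in each direction among named genes without overlap and with at least 1 CPM, a panel of 26 and the smallest p of each list; others are said to be chosen after their values were seen. A few genes that this rule names are not reported here. P-values of the fit set the difference between the CM1 and CM0 means against the spread between libraries of a group, estimated over all 24 libraries.

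On simulated counts of 18679 genes, edgeR recovered 21.8% of 55 genes changed 1.5-fold and 58.9% of 73 changed 2-fold between CM1 and CM0. It recovered 91.7% of 72 changed 4-fold, with 5 false calls in all. Each gene was drawn on its own, without libraries that shift many genes together as CM1 3 and CM0 2 do. Recovery in data with such libraries was not tested. Alternatives were DESeq2, limma, DESeq2 size factors, other filters, the 8 libraries alone and leaving out libraries; leaving out CM1 3 and CM0 2 together was chosen after seeing the data.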

Additional observations from a re-analysis of the deposited data

Results flagged for a closer look

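In 17 of 226 groups of 4 libraries checked, 1 library lay farther from the rest than Dixon's 95% critical value allows. Chance flags about 1 in 20 independent groups of normally distributed values, here about 11.3. The groups checked share libraries and hold genes that move together, and some genes were chosen by p. No conclusion is therefore drawn from the number flagged. Of the 17, 5 fell on CM1 3, which was highest of the CM1 libraries for Cxcl2 (372.6 CPM), Ccl3 (71.59 CPM), Ccl4 (55.72 CPM), Tnf (25.11 CPM) and Stfa2l1 (18.47 CPM), and a further 1 was its score for immediate early and heat shock genes (5.893 mean log2 CPM). CM1 2 was highest of the CM1 libraries for Retnla (29.35 CPM), for the growth factor gene Gdf15 (14.14 CPM) and for the alternative macrophage activation score (5.422). CM1 4 was highest of the CM1 libraries for Col3a1 (45660 CPM), for Xbp1 (138.7 CPM), a transcription factor of secretory cells, and for the scores of fibrillar matrix (10.43) and matrix proteases (7.024). CM1 1 was highest of the CM1 libraries for Nhej1 (3.532 CPM). Among CM0 libraries, CM0 2 was lowest for the fibrillar matrix score (9.765), CM0 3 was highest for the lymphatic endothelium score (4.17) and CM0 4 was highest for Aif1 (8.849 CPM).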

How the results depend on the processing

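No gene was called between CM1 and CM0 under any of the 15 alternatives tried, with DESeq2, limma and edgeR. The number of genes at an unadjusted p under 0.05, 422 in the main fit, was 703 with limma and sample quality weights and 997 of 38762 genes with no filter beyond 1 count. It was 347 to 565 when 1 library was left out and 324 without CM1 3 and CM0 2. Genes whose groups did not overlap, 372 in all, numbered 619 without the filter, 690 to 947 when 1 library was left out and 1480 without both, since fewer libraries leave fewer values to overlap. Because no gene passed the adjusted threshold, no sign reversal could involve a called gene. Of the genes whose sign reversed in some setting, Tnf and Stfa2l1 had an unadjusted p under 0.05 in the main fit. With all libraries in the fit, signs reversed for Il6 (0.11) and Col3a1 (-0.029) with limma. When each library was left out in turn, the log2 fold change ran from -0.28 to 0.036 for Acta2, -0.14 to 0.22 for Col1a1, -0.16 to 0.19 for Col3a1, -0.055 to 0.59 for Fabp4, -0.10 to 2.90 for Il1b, -0.44 to 0.60 for Il6, -0.53 to 0.056 for Isg15, -0.19 to 0.60 for Krt16, -0.25 to 0.55 for Krt6a, -0.060 to 1.54 for Nos2, -1.15 to 0.78 for Retnla and -0.17 to 1.29 for Tnf. Without CM1 3 and CM0 2 together it was -0.39 for Nos2, -0.21 for Tnf, -0.49 for Il1b, -0.20 for Cxcl1, -0.19 for Cxcl2, -0.36 for Krt6a, -0.41 for Krt16 and -0.17 for Stfa2l1. The cause of the reversals in limma was not tested. No paired analysis was possible because the labels give the libraries no replicate numbers. At this depth and with 4 libraries a medium, differences under 2-fold would often be missed, and genes near 1 CPM rest on few reads.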

Other observations

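Several gene groups not described above also stayed near 0. Hypoxia and glycolysis genes had 11 of 18 above 0 in CM1 wounds with a median log2 fold change of 0.08, and -0.10 without CM1 3 and CM0 2. Adm, the vasodilator adrenomedullin, was the gene of that list whose groups did not overlap, with 9.11, 10.6, 11.5 and 8.85 CPM in CM1 wounds, against 7.87, 3.63, 7.57 and 3.64 CPM in CM0 wounds. Immediate early and heat shock genes had 10 of 21 above 0 with a median of -0.01, the smallest p being that of Atf3, a stress-induced transcription factor, at 0.42 ± 0.24 (SE). Myofibroblast and smooth muscle genes had 7 of 16 above 0 with a median of -0.12, and Lmod1, a leiomodin of smooth muscle, had the smallest p at -0.49 ± 0.30 (SE), which was -0.09 without CM0 2. Sebaceous gland genes had 5 of 11 above 0 with a median of 0.00, and Krt79, a keratin of the gland duct, had the smallest p at -0.61 ± 0.33 (SE). Lymphatic endothelium had 2 of 6 above 0 with a median of -0.15, Schwann cells 1 of 11 with -0.05 and erythrocytes 0 of 5 with -0.09. In none of the lymphatic, Schwann cell and erythrocyte lists did a gene reach an unadjusted p under 0.05.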
